A study of Mus musculus with 4 samples.

Results

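The genes that define the identity of mouse embryonic stem (ES) cells were followed in 1 wild type RNA-seq library and 1 library labelled *Prep1*-/-. The set names 10 genes, found by symbol: *Pou5f1*, *Sox2*, *Nanog*, *Sall4*, *Utf1*, *Dppa2*, *Dppa4*, *Dppa5a*, *Fbxo15* and *L1td1*. Of these, 9 were found by symbol among the 22718 genes of the RNA-seq tables. *L1td1* was matched neither by symbol nor by identifier and was not analysed here. The 9 genes kept their expression in the library labelled *Prep1*-/-. None crossed the thresholds of the study. For 7 of 9 the level was higher than in wild type by more than counting error, *Dppa4* could not be told from its wild type level, and *Fbxo15* was lower by a step that depends on the depth behind the counts. The step beyond counting error for *Dppa5a* did not survive the addition of reads from near-identical copies of that gene. *Dppa4* could not be told from its wild type level with or without such reads.

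Both RNA-seq lines were derived from C57Bl6 mice and grown on gelatin-coated dishes in medium with serum and leukemia inhibitory factor (LIF). The wild type line was set against a single *Prep1*-/- line, KO2, so that line and genotype cannot be told apart. Prep1, encoded by *Pknox1*, is a homeodomain transcription factor of the TALE class that binds DNA together with Pbx proteins. A Prep1 ChIP-seq library with its input, also from ES cells, supplied the positions of Prep1 on the genome. The labels give C57BL/6 for those cells, whereas the methods name the R1 line and an antibody that also recognizes Prep2 weakly.

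Oct4 (the product of *Pou5f1*) and Sox2 bind adjacent sites on DNA as a pair and, with Nanog, switch on each other and the genes that keep ES cells undifferentiated. Sall4 is a zinc finger protein that works with them, and Utf1 is a chromatin-bound factor. Dppa2 and Dppa4 form a complex on chromatin through their SAP domains. Dppa5a is an RNA-binding protein with a KH domain, and Fbxo15 is an F-box protein known as a target of Oct4 and Sox2. Most of these genes are switched off as ES cells differentiate.

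The wild type library held 29596294 reads in genes and the library labelled *Prep1*-/- 25717811. The members held 84710 of these reads (0.286%) in wild type and 89344 (0.347%) in the library labelled *Prep1*-/-. Levels are RPKM as deposited, that is, reads scaled to gene length and library size, and the KO/WT ratio divides the RPKM of the library labelled *Prep1*-/- by that of wild type. With 1 library per genotype there is no replicate check and no test. The 95% intervals are exact (Clopper-Pearson) binomial intervals of the reads, so they cover counting error only and compare 2 libraries, not 2 genotypes. The methods state fewer reads per sample than these sums, and intervals from 0.25 of each count were therefore added as an alternative with the values known. They still lay above 1 for 7 members, with *Utf1* at 1.00 to 1.07, but that of *Fbxo15* then reached from 0.685 to 1.03. *Pknox1*, the targeted gene, had 505 wild type reads (RPKM 7.85), against 332 (RPKM 5.78) in the other library, a KO/WT ratio of 0.736 (0.638 to 0.846). Because the targeted gene kept reads, every direction below rests on the label of the library. RNA reads do not show whether Prep1 protein was made.

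Only 2 Prep1 peaks lay within 20 kb of the start of a member, and their sequences are shown here because they are the places where the ChIP-seq touches the set. Each is given as the middle 300 bases of the peak on the strand of the nearby member, on mm9 (NCBIM37). In the peak near *Dppa5a* (chr9:78220690-78220989, minus strand) the capitals mark a match to a loosened form of DECA, the decamer that Prep1 recognizes together with Pbx, in which a further position may be any base. In the peak between *Dppa4* and *Dppa2* (chr16:48303756-48304055, plus strand) the capitals mark the letters TGATTGG as they read from the opposite strand.
peak near Dppa5a: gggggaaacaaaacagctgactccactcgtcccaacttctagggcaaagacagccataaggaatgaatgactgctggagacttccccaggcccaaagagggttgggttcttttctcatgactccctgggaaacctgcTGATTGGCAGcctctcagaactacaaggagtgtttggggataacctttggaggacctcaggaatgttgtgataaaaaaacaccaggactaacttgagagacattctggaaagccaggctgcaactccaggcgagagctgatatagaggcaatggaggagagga
peak between Dppa4 and Dppa2: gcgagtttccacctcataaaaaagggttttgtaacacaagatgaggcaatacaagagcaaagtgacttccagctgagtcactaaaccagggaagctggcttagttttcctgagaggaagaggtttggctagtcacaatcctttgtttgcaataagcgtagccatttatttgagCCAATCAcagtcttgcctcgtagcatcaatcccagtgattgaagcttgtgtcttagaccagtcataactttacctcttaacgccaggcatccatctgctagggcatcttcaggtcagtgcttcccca
Neither stretch held the exact DECA motif on either strand. The exact motif is a stricter string than the consensus of the study, which reports its consensus in a larger share of the peaks. A miss of the exact motif therefore does not show that a peak lacks the motif of the study. The exact motif was found in 23.1% of the 300-base windows of all 3902 peaks and in 0.874% of 32851 RefSeq promoters of the same length. The loosened form, which includes the exact one, was found in 32.9% of the windows and 2.29% of the promoters. The match in the *Dppa5a* peak reads TGATTGGCAG on the minus strand, at chr9:78220843-78220852 and within 8 bases of the middle of the peak. TGATTGG, which overlaps that match, was present in 26.8% of the windows and 7.82% of the promoters, so a match to it is common. The loosened form and TGATTGG were chosen after the sequences of these peaks had been read, and a match is a description of the letters, not a bound site.

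*Pou5f1* (ENSMUSG00000024406, chr17:35642982-35647721, plus strand of mm9) encodes Oct4. It had 7571 wild type reads (RPKM 323), against 7527 (RPKM 360) in the library labelled *Prep1*-/-, a ratio of 1.11 (1.08 to 1.15). Its raw reads were thus nearly the same, and the higher RPKM came with the smaller size of the second library. *Sox2* (ENSMUSG00000074637, chr3:34548927-34551383, plus strand), the HMG-box partner of Oct4, had 7918 wild type reads (RPKM 101). Its 9336 reads (RPKM 134) in the library labelled *Prep1*-/- gave a ratio of 1.32 (1.28 to 1.36). *Sox2* was therefore higher by 31.8% in RPKM, and it had more reads in the smaller library.

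*Nanog* (ENSMUSG00000012396, chr6:122657507-122664651, plus strand) encodes the homeodomain factor that holds ES cells in self-renewal. It had 6187 wild type reads (RPKM 66.4), against 7581 (RPKM 91.0) in the library labelled *Prep1*-/-. The ratio was 1.37 (1.32 to 1.42), the highest of the 9 members. *Sall4* (ENSMUSG00000027547, chr2:168573832-168593443, minus strand) had the most reads of any member, 32351 in wild type and 36251 in the other library. Its RPKM was 93.7 and 117 and its ratio was 1.25 (1.23 to 1.27). *Sox2*, *Nanog* and *Sall4* were thus higher in the library labelled *Prep1*-/- by 25.3% to 37.0%, and Oct4 RNA by 11.2%. The intervals of *Nanog*, *Sox2* and *Sall4* did not reach that of *Pou5f1*.

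*Utf1* (ENSMUSG00000047751, chr7:147129688-147131011, plus strand) was the most abundant member by RPKM. It had 27046 wild type reads (RPKM 767), against 25058 (RPKM 794) in the library labelled *Prep1*-/-. The ratio of 1.04 (1.02 to 1.05) put it 3.59% higher, the smallest difference of the set. In the order of RPKM over all genes with finite values it stood at rank 53 in wild type and rank 46 in the other library.

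Among the Dppa genes, *Dppa2* (ENSMUSG00000072419, chr16:48310590-48319836, plus strand) had 549 wild type reads (RPKM 26.9), against 657 (RPKM 35.96) in the library labelled *Prep1*-/-. Its ratio was 1.34 (1.19 to 1.501), and the upper end of the interval lay at the threshold of 1.5. Its neighbour and partner *Dppa4* (ENSMUSG00000058550, chr16:48283848-48294405, plus strand) had 279 wild type reads (RPKM 12.2), against 262 (RPKM 12.9) in the other library. Its ratio of 1.05 (0.884 to 1.25) had the only interval of the set that spanned 1. *Dppa5a* (ENSMUSG00000060461, chr9:78214859-78215984, minus strand) had 1892 wild type reads (RPKM 389), against 1986 (RPKM 457) in the library labelled *Prep1*-/-. Its own reads gave a ratio of 1.17 (1.10 to 1.25).

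Reads of the Dppa genes are uncertain because near-identical copies of their transcripts lie elsewhere in the genome. A search of mm9 with each member's transcript found 7 places that match *Dppa5a* over more than 80% of its length, at an identity of at least 90%. The copy *Gm6083* on chromosome 5 (chr5:29864639-29865233) matched 95.5% of the *Dppa5a* transcript at 96.0% identity. It was credited with 1959 reads in wild type and 1640 in the library labelled *Prep1*-/-, a ratio of 0.936 (0.876 to 1.00), so in wild type it had more reads than *Dppa5a* itself. *Gm6798* on chromosome X had 93 and 63 reads. When the reads of the annotated copies were added to its own, which was decided with the values known, *Dppa5a* had 3946 reads in wild type and 3691 in the library labelled *Prep1*-/-. The ratio was then 1.05 and its interval of 1.00 to 1.09 reached down to 1. For *Dppa4*, the copy *Gm14058* on chromosome 2 had 168 and 135 reads. The sum gave a ratio of 0.993 (0.865 to 1.14), so the interval of *Dppa4* spanned 1 with and without the copy. For *Dppa2*, *Gm9788* on chromosome 19 had 30 and 38 reads, and the sum left the ratio at 1.34 (1.20 to 1.501). No copy of at least 25% of the transcript was found for *Sox2*, *Sall4*, *Utf1* or *Fbxo15*. *Nanog* had 1 on chromosome X over 71.8% of its transcript, and *Pou5f1* had 1 over 28.6%, and neither is a gene of its own in the tables. The sums hold only copies with values of their own, which leaves out these places and further copies of *Dppa2*, *Dppa4* and *Dppa5a*. Whether reads from such places were credited to the members is not known.

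*Fbxo15* (ENSMUSG00000034391), on the plus strand of chromosome 18, was the only member with a ratio below 1. It had 917 wild type reads (RPKM 23.9), against 686 (RPKM 19.99) in the library labelled *Prep1*-/-. The ratio was 0.837 (0.757 to 0.924), above the threshold of 0.7 even at the lower end of its interval. Its interval did not reach that of any other member except *Dppa4*. The gene overlaps *1700034H14Rik* on the opposite strand, which had 185 and 180 reads and a ratio of 1.09 (0.881 to 1.34). The kit named by the labels does not mark strand, although the study speaks of transcripts of the sense strand, so it is not known whether reads of these genes were told apart where they overlap. Likewise *Sox2* lies within *Sox2ot* and *Sall4* overlaps *Gm14261*, neither of which has a value in the tables.

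**Figure D1:**
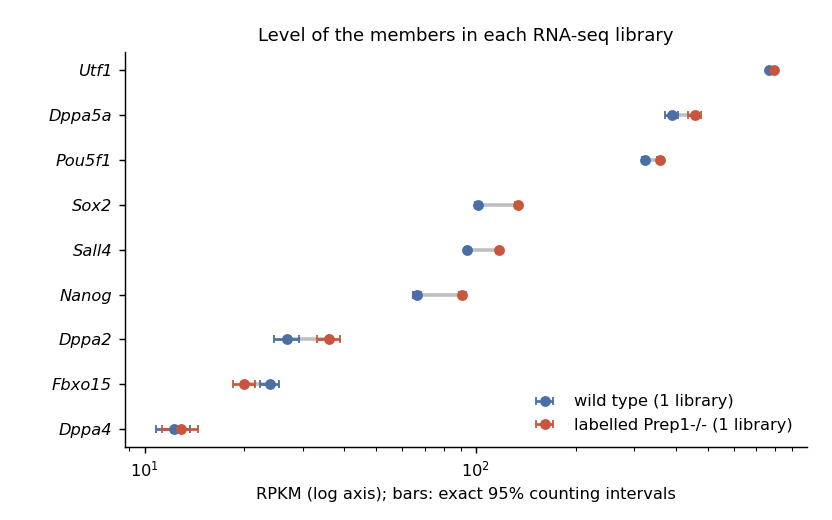
RPKM (log axis) of the 9 members in the wild type library (blue) and in the library labelled Prep1-/- (red), 1 library each, with exact 95% counting intervals of the reads. Levels run from 12.2 and 12.9 for Dppa4 to 767 and 794 for Utf1, the order of the genes is the same in both libraries, and Fbxo15 is the only member whose red point lies to the left.

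By RPKM the members spanned the top of the transcriptome, from *Utf1* within the first 0.234% of genes in wild type to *Dppa4* within the first 29.4%. Their order by RPKM was the same in both libraries. Within wild type, the counting intervals of neighbours in this order overlapped only for *Dppa2* and *Fbxo15*. RPKM depends on the length used for each gene, and the length implied by the deposited values ranged from 0.311 times the annotated exon bases for *Dppa5a* to 2.46 times for *Sall4*, against 1499 single-transcript genes set to a median of 1. On a scale of reads per kilobase of annotated exon and per 1000000 reads of the library, *Utf1* stayed first in wild type with 745 and *Sall4* moved to second with 197. *Pou5f1*, *Sox2*, *Dppa5a* and *Nanog* followed closely on that scale with 113, 109, 103 and 93.2. The ranking of Oct4, *Dppa5a*, *Sox2*, *Sall4* and *Nanog* RNA among themselves therefore depends on gene length, whereas the KO/WT ratio of each does not.

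No member passed either threshold of the study. The lower threshold, a ratio under 0.7 at a wild type RPKM over 1, was met by 0 of 9 members, against 13.3% of the 14254 genes whose RPKM passed 1 in at least 1 library. The upper threshold, a ratio over 1.5 where the RPKM of the library labelled *Prep1*-/- was over 1, was met by 0 of 9, against 6.91% of these genes. The study states its RPKM filter for transcripts detected in wild type, whereas the upper call here used the other library. That choice does not change the count of members, whose RPKM passed 1 in both libraries. All members are abundant, and among the 6949 genes with an RPKM above 10 in both libraries the shares were 5.87% and 1.68%. At those shares fewer than 1 gene in 9 would pass, so the counts of 0 do not set the members apart from other genes of their level. The counting interval lay above 1 for 7 of 9 members, against 20.7% of the 14254 genes and 23.8% of those with an RPKM over 10 in each library. It lay below 1 for 1 of 9, against 36.3% and 41.7%.

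The members leaned upward within the thresholds. Their median ratio was 1.17, or 0.23 on the log2 scale, and 8 of 9 had a ratio above 1, or 7 of 9 with the reads of copies added. Where RPKM passed 10 in both libraries, the median ratio of all genes was 0.959, and 39.5% had a ratio above 1. Among all 13218 genes with an RPKM above 1 in both libraries the median was 0.955, and with that median set to 1 the members' median became 1.23. In the order of their ratios, *Fbxo15* stood apart below *Utf1*. From *Utf1* through *Dppa4*, *Pou5f1*, *Dppa5a* and *Sall4* each interval overlapped the next, *Sall4* lay apart below *Sox2*, and *Sox2*, *Dppa2* and *Nanog* overlapped.

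**Figure D2:**
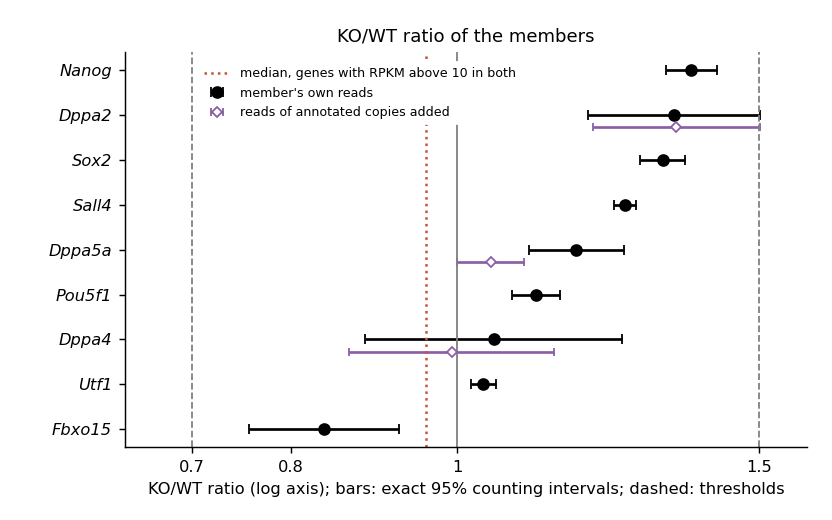
KO/WT ratio of RPKM (log axis) for each member, with exact 95% counting intervals. Black points use the member's own reads and open diamonds add the reads of annotated copies for the 3 Dppa members. Dashed lines are the thresholds of 0.7 and 1.5, the solid line is 1, and the dotted line at 0.959 is the median where RPKM passed 10 in both libraries. All points lie between the thresholds, from 0.837 for Fbxo15 to 1.37 for Nanog, and the diamond of Dppa5a lies at 1.05.

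**Figure D3:**
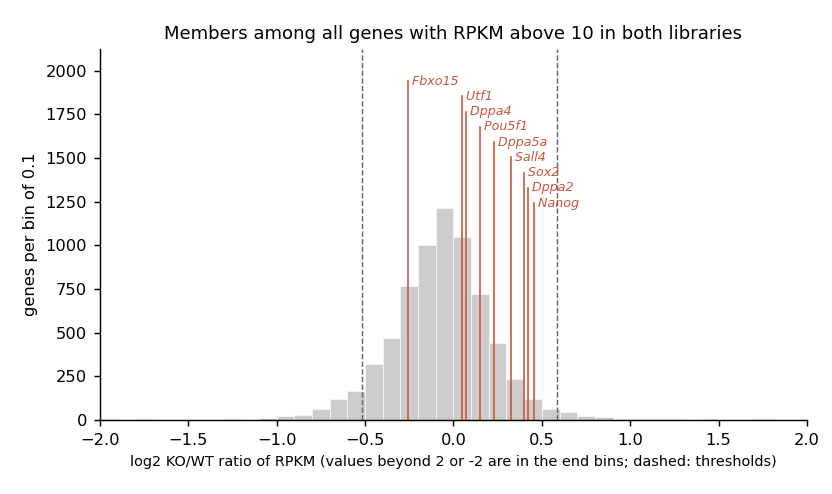
Number of genes per bin of log2 KO/WT ratio for the 6949 genes whose RPKM passed 10 in each library (grey), with the log2 ratio of each member as a red line and the thresholds dashed. The members lie between -0.26 (Fbxo15) and 0.45 (Nanog), 8 of 9 to the right of 0, while 39.5% of all these genes lie there.

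The members lie on 8 chromosomes, and only *Dppa2* and *Dppa4* are neighbours, with 16.2 kb between them. The median ratio of all genes on these chromosomes ran from 0.923 (chromosome 7, with *Utf1*) to 1.01 (chromosome 6, with *Nanog*). *Pou5f1* lies 3.90 Mb from *Pknox1*, the gene targeted in the KO2 line, on chromosome 17. The nearest genes of the tables on each side of the members did not share a direction, since 5 of the 10 that had reads and an RPKM above 1 in both libraries had a ratio above 1. Next to *Dppa5a*, *Ooep*, which encodes a protein of the egg and early embryo, had 1332 reads in wild type and 2289 in the library labelled *Prep1*-/-, a ratio of 1.92 (1.80 to 2.06). On the far side of *Dppa2*, *Morc1*, 112 kb away, had 351 and 486 reads and a ratio of 1.55 (1.35 to 1.78). Both neighbours were past the upper threshold, while the members beside them were not. *Cyb5*, 54.8 kb from *Fbxo15*, had 1628 and 854 reads and a ratio of 0.587 (0.539 to 0.638). *Zfp64*, 125 kb from *Sall4*, had 6869 and 4292 reads and a ratio of 0.699 (0.672 to 0.726). *Slc2a3*, the glucose transporter gene beside *Nanog*, had 52557 and 37467 reads and a ratio of 0.797 (0.787 to 0.808), opposite to *Nanog*. Beside *Pou5f1*, *H2-Q10* had 55 and 28 reads and a ratio of 0.579 (0.348 to 0.913), and *Tcf19* had 217 and 142 reads and a ratio of 0.733 (0.588 to 0.908). For *Sox2* the nearest gene with reads was *Atp11b*, 1102 kb away, with a ratio of 1.37 (1.29 to 1.45). *Kndc1* beside *Utf1* and *Atp9a* beside *Sall4* had ratios of 1.28 (1.05 to 1.55) and 1.13 (1.07 to 1.20).

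Prep1 was not mapped inside any member gene. A peak within 20 kb of the gene's start was found for 3 of 9 members, *Dppa5a*, *Dppa2* and *Dppa4*, against 21.0% of 21446 annotated genes with a peak in the gene or within that distance. Where RPKM passed 10 in both libraries the share was 28.4%, so the members' count was close to that of genes of their level. The ChIP-seq was 1 library, so a peak has no replicate check. The score of the deposited peaks, which equals a rounded fold enrichment over input, ran from 4 to 336 with a median of 21. The *Dppa5a* peak (chr9:78220517-78221164) had a score of 12, and 22.1% of all peaks scored lower or the same. Its middle lay 4.86 kb upstream of the start, between *Dppa5a* and *Ooep*. The peak shared by *Dppa2* and *Dppa4* (chr16:48303651-48304161) had a score of 14, at percentile 31.9. Its middle lay 6.68 kb upstream of *Dppa2* and its nearer edge 19.8 kb from the start of *Dppa4*. Both peaks thus belonged to the weaker part of the list, and the 3 members beside them had ratios of 1.05 to 1.34.

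The core factors were farther from Prep1. The nearest peak of *Nanog* lay 104 kb from its start, that of *Sox2* 110 kb and that of *Pou5f1* 131 kb, and *Sall4* had its nearest at 55.0 kb. *Utf1* had a peak at 35.0 kb with a score of 16, which lies at the start of *6430531B16Rik*. The nearest peak of *Fbxo15*, with a score of 29, had its edge 21.9 kb from the start, just outside the limit of 20 kb. The highest ratios were those of *Dppa2*, with a peak nearby, and of *Nanog* and *Sox2*, without. Whether distance to a peak and the KO/WT ratio go together among the 9 genes was not tested.

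**Figure D4:**
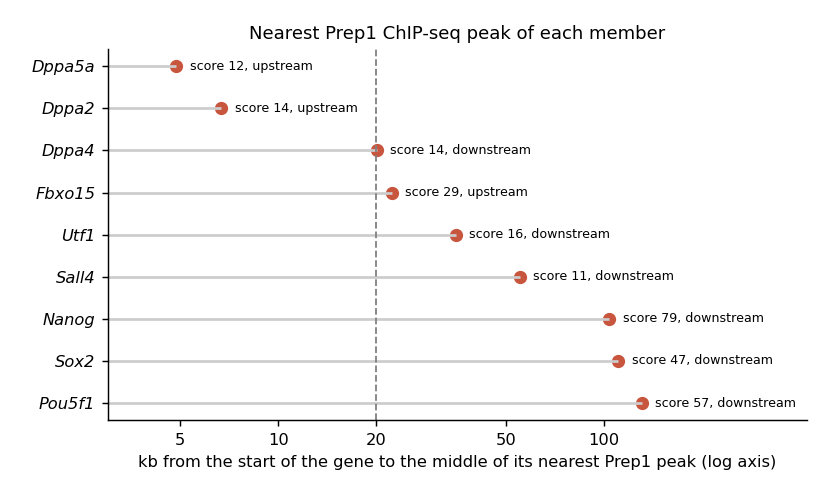
Distance in kb (log axis) from the start of each member to the middle of its nearest Prep1 peak, with the peak's score and its side. The dashed line is the limit of 20 kb, which was applied to the nearer edge of a peak, so that the peak at 20.1 kb from Dppa4 counts. Distances run from 4.86 kb for Dppa5a to 131 kb for Pou5f1.

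The promoter of *Nanog* is shown because *Nanog* had the highest ratio and its promoter holds a composite site for Oct4 and Sox2. The RefSeq promoter table held entries for 4 of the 9 members, *Sox2*, *Nanog*, *Utf1* and *Pou5f1*. The stretch runs from 250 bases before to 50 bases after the first of 2 RefSeq starts (GRCm38.p6, chr6:122707239-122707538, plus strand). The capitals mark the composite, which reads CATTGTAATG on the minus strand and begins at position -71 from that start.
promoter of Nanog: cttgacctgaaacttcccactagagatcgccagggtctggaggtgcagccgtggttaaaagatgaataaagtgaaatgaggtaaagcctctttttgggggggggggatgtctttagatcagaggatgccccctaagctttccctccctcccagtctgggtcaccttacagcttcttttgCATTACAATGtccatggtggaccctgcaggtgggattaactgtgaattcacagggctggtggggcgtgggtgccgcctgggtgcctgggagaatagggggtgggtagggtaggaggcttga
This composite motif, which contains the Sox site CATTGT and was searched on both strands, was present in 0.292% of the 32851 promoters and in 0.333% of the peak windows. It was not found in the windows of *Sox2*, *Utf1* or *Pou5f1*, which says only that its letters are not in those 300 bases. The *Nanog* promoter held no TGACAG, the last bases of the exact DECA motif, whereas that of *Sox2* held it at position -18. TGACAG was present in 19.2% of all promoters.

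Genes that work with the members were counted by the same thresholds. Over the 14254 genes with an RPKM above 1 in a library, 13.3% were below and 6.91% above. Where RPKM passed 10 in both libraries, the shares were 5.87% and 1.68%. Among the other ES-enriched genes, 0 of 15 were below 0.7 and 1 was above 1.5, with a median ratio of 1.17 like that of the members. The gene above was *Eras*, an ES-specific Ras protein, with 1064 reads (RPKM 37.0) in wild type and 1539 (RPKM 59.8) in the library labelled *Prep1*-/-, a ratio of 1.62 (1.49 to 1.75). The gene of that list with the most reads, *Slc2a3*, had the lowest ratio of the list. Of the proteins known to bind Oct4 or Nanog, 0 of 14 were below and 2 were above, with a median of 1.07. They were *Sall1*, the paralog of *Sall4*, which went from 7943 to 15756 reads at a ratio of 2.22 (2.16 to 2.28), and *Nr0b1* (Dax1), a nuclear receptor that restrains Oct4, from 2362 to 3627 reads at 1.72 (1.63 to 1.81). *Trim28*, the most abundant partner, had 61554 and 64342 reads and a ratio of 1.17 (1.16 to 1.18).

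Of the known targets of Oct4 and Sox2, 0 of 9 were below and 2 were above, and their median ratio was 1.30. The Krüppel-like factor gene *Klf4* had 5270 reads in wild type and 7467 in the library labelled *Prep1*-/-, a ratio of 1.58 (1.53 to 1.64). *Upp1*, uridine phosphorylase, had 4171 and 5647 reads and a ratio of 1.51 (1.45 to 1.58). The factors of naive pluripotency had more genes above the upper threshold than the other lists, with 0 of 12 below, 5 of 12 above and a median ratio of 1.37. *Prdm14*, a zinc finger factor of naive and germ cells, had only 186 and 490 reads (RPKM 2.63 and 7.72) and a ratio of 2.94 (2.48 to 3.51). *Tcl1*, a coactivator of Akt, had 1127 and 2063 reads and a ratio of 2.05 (1.90 to 2.20). *Nr5a2*, a nuclear receptor that can act on the *Pou5f1* promoter, had 805 and 1227 reads and a ratio of 1.70 (1.56 to 1.87). *Klf4* and *Nr0b1* belong to this list as well, and *Esrrb*, its member with the most reads, had a ratio of 1.32 (1.31 to 1.34). *Zfp42* and *Dppa3* of the same list, named after their values were seen, had ratios of 0.801 (0.684 to 0.934) and 0.921, so the naive factors did not all lie on the same side of 1. No count over a list was tested against other genes.

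The Sox, Sall and POU relatives of the members by sequence did not follow them as a group. The shares over the 14254 genes with an RPKM above 1 in a library were 13.3% below and 6.91% above. Of 10 other Sox genes 1 was below the lower threshold and 0 above. Their median ratio was 1.06 over the 9 with an RPKM above 1 in both libraries, and 0.976 over all 10, so it had no clear direction. That gene was *Sox18*, a factor of vessel endothelium, with 196 and 111 reads and a ratio of 0.636 (0.497 to 0.803). *Sox12*, the other Sox gene with the most reads, had a ratio of 1.06 (1.03 to 1.10). Among 3 Sall genes *Sall1* was above the upper threshold. Of 11 other POU genes only 6 had an RPKM above 1 and could be called, of which 0 passed a threshold. The median ratio of these 6 was 0.898, and *Pou2f1*, the most abundant, had a ratio of 0.906 (0.854 to 0.961). *Dppa3* (Stella), listed with the Dppa genes by name, had 316 and 260 reads and a ratio of 0.921 (0.778 to 1.09).

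**Figure D5:**
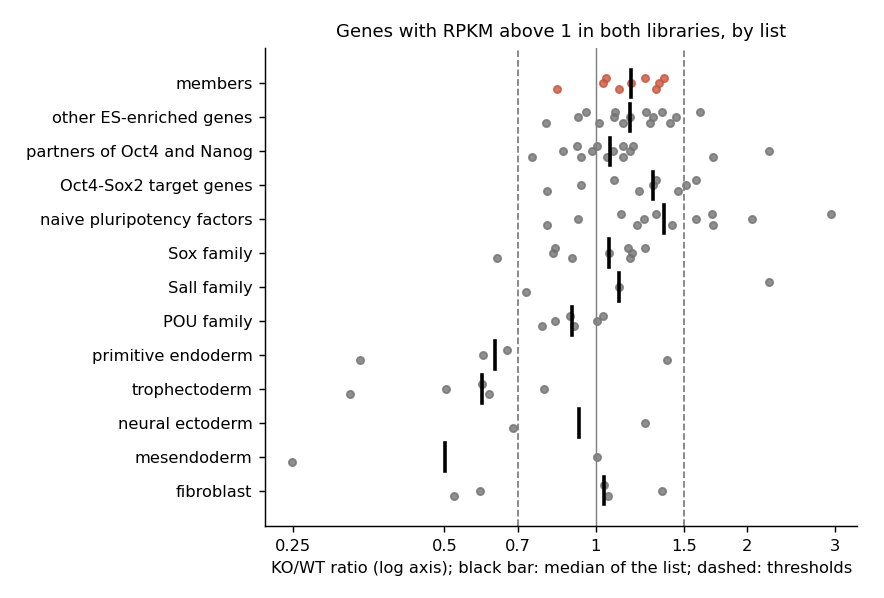
KO/WT ratio (log axis) of genes with RPKM above 1 in both libraries, 1 point per gene, for the members (red) and 12 other lists (grey), with the median of each list as a black bar and the thresholds dashed. The members lie between the thresholds around 1.17, the naive pluripotency factors reach 2.94 (Prdm14), and the median of the 5 trophectoderm markers shown lies at 0.595. The bars of the primitive endoderm, neural and mesendoderm markers rest on 4, 2 and 2 genes.

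Markers of differentiated cells were counted in the same way. In each of the primitive endoderm, trophectoderm, mesendoderm, neural and fibroblast lists, more genes lay below the lower threshold than above the upper one. Over the 14254 genes with an RPKM above 1 in a library, the shares were 13.3% below and 6.91% above. Of 10 primitive endoderm markers, of which 5 had an RPKM above 1 in a library, 4 were below the lower threshold and 0 above, and their summed RPKM was 14.4 in wild type and 8.02 in the library labelled *Prep1*-/-. *Gata4*, a defining factor of that lineage, had 1156 and 350 reads and a ratio of 0.339 (0.300 to 0.382). *Gata6* had 107 and 43 reads, *Dab2* 356 and 212, and *Amn* 87 and 46. *Sox7*, named after its value was seen, went the other way with 119 and 148 reads and a ratio of 1.39 (1.09 to 1.79). Of 7 trophectoderm markers, of which 6 had an RPKM above 1 in a library, 5 were below and 0 above. Their summed RPKM was 806 and 481, nearly all of it from the keratins. *Krt18* had 17979 and 9564 reads and a ratio of 0.595 (0.580 to 0.610), and *Krt8* had 4487 and 2463 reads and a ratio of 0.614 (0.584 to 0.645). *Cdx2*, which opposes Oct4 in the early embryo, had 186 and 36 reads and a ratio of 0.221 (0.147 to 0.311). *Hand1* had 828 and 240 reads and *Eomes* 786 and 354.

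Of 7 mesendoderm markers, of which 3 had an RPKM above 1 in a library, 2 were below and 0 above. *T* (brachyury) had 1091 and 242 reads and a ratio of 0.249 (0.215 to 0.285), and *Mixl1* had 163 and 43 reads. *Tbx6*, named after its value was seen, had 159 and 143 reads and a ratio of 1.01 (0.797 to 1.27). Of 8 neural markers, of which 4 had an RPKM above 1 in a library, 2 were below and 1 above. *Nes*, an intermediate filament gene, was below the lower threshold with 8200 and 5018 reads and a ratio of 0.684 (0.660 to 0.709). *Pax6* was above the upper one with 358 and 588 reads, at a wild type RPKM of only 0.939. Of 9 fibroblast markers, of which 5 had an RPKM above 1 in a library, *Twist1* and *Twist2* were below and 0 above. The median ratio of these 5 was 1.04, and the summed RPKM of the list was 29.9 and 33.3. *Col1a1*, the fibroblast marker with the highest level, had 976 and 1186 reads and a ratio of 1.36 (1.25 to 1.48). Of the markers of 2-cell-like cells 4 were found, and they held 1 read in wild type and 6 in the other library. The part of these markers in the values of the members was not tested. In bulk RNA a lower level of a marker can come from fewer cells of a type or from less RNA per cell, and these cannot be told apart here.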

How the data were processed

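RNA-seq was done on 1 wild type and 1 *Prep1*-/- ES cell library. Per the study's methods, mRNA was sequenced as paired-end reads and assigned by RSEM to mouse Ensembl genes on mm9, and the labels name DESeq as well. Versions of the programs are not given in the sources used here. The authors deposited a whole-number read count per gene, not normalized, and an RPKM value per gene. In every gene with finite values the deposited RPKM ratio was 1.12 times the ratio of the counts plus 1. The authors aligned the ChIP-seq with BWA, called peaks against input with MACS and deposited them with a score per peak.

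The KO/WT ratio was taken from the RPKM without a pseudocount, for 22633 genes with finite values, and its 95% interval from the exact binomial interval of the reads. No count model or test was run, since each genotype has 1 library. The intervals were tested on simulated data that held counting error only, so that test says nothing about variation between libraries. Members were matched by symbol, and coordinates come from GENCODE M1 on NCBIM37, which held 21446 of the 22718 genes. Genes named are the members, *Pknox1*, the nearest and overlapping genes of the members, and in each other list those past a threshold and that with the most reads. A neural marker that this rule covers is not reported here. The members and lists were chosen with earlier results of these data known. Copies were sought with BLAST+ 2.17.0 at an identity of at least 90%. The scripts ran in Python 3.11.15 (scipy 1.17.1, pandas 2.3.3, numpy 2.4.6, matplotlib 3.10.9). The alternatives were other scalings, thresholds, RPKM filters, pseudocounts, interval levels and peak distances.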

Additional observations from a re-analysis of the deposited data

How the results depend on the processing

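No member passed a threshold under any of the scalings, RPKM filters, pseudocounts and thresholds tried, and the intervals of 7 to 8 members lay apart from 1. With 0.25 of the reads, 7 lay above 1 and that of *Fbxo15* reached 1. The median log2 ratio was 0.23, and it ran from 0.15 with the reads of annotated copies added, which was decided with the values known, to 0.31 with each ratio divided by its chromosome's median. Every member's ratio stayed on its side of 1 except *Dppa4*, which ran from 0.993 with copies added to 1.10 with upper quartile scaling. The count of members with a Prep1 peak within 20 kb was 3, and it was 1 within 5 kb, 5 within 50 kb and 0 with only the stronger part of the peaks, those at or above the median score. Over all annotated genes the shares were 14.2%, 32.6% and 12.5%. With distance taken to the middle of the peak, chosen after the data were seen, 2 members had a peak. In the other lists 25 genes passed a threshold, and 10 did at thresholds of 0.5 and 2. No paired analysis was possible because each genotype has 1 library, and for the same reason no library could be left out. Depth limits *Dppa4* most, with 279 and 262 reads.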

Other observations

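The RT-qPCR primers that the study lists for Oct4 and *Nanog* were placed on mm9 by exact matches, and they are shown because they are listed for 2 of the members. Capitals are not used in these sequences.
Oct4 forward: gcaggagcacgagtggaaagcaac
Oct4 reverse: tcccgacttcccttcaccatac
Nanog forward: aggctttggagacagtgaggtgc
Nanog reverse: taccctcaaactcctggtccttc
The Oct4 forward primer had 1 exact match, in exon 1 of *Pou5f1* (chr17:35643324-35643347). The Oct4 reverse primer as listed had no exact match in a *Pou5f1* transcript, and its only exact match in the genome was in an exon of *Cdx2* (chr5:148112545-148112566). The listed Oct4 primers thus matched different chromosomes, and by exact matches the pair encloses no stretch of either *Pou5f1* or *Cdx2*. The *Nanog* primers matched exon 5 of *Nanog* at chr6:122664171-122664193 and chr6:122664373-122664395. Both also matched the unannotated copy of *Nanog* on chromosome X, at chrX:87128109-87128131 and chrX:87127905-87127927. Whether the Oct4 reverse primer as listed is the one that was used is not known. No RT-qPCR value was analysed here.

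In the RNA-seq libraries, the genes on these primer sites differed in direction. *Pou5f1* had a KO/WT ratio of 1.11 and *Nanog* 1.37, whereas *Cdx2*, the gene that matches the listed Oct4 reverse primer, had 186 reads in wild type and 36 in the library labelled *Prep1*-/-, a ratio of 0.221.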
